A study of Caenorhabditis elegans with 2 samples.

Results

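Among the regions precipitated with SYD-9-GFP from late embryos of Caenorhabditis elegans, 242 autosomal regions had a summit away from annotated promoters and small RNA genes. They are 25.7% of the 941 regions in the optimal set of the irreproducible discovery rate (IDR) step, which draws on how alike regions rank in the replicates, and 34.9% of the 693 on autosomes. Members were chosen by the position of the summit: more than 500 bp from every protein-coding 5' end and more than 200 bp from every tRNA, snoRNA, snRNA, miRNA and rRNA gene. Of the other autosomal regions, 330 lay within 500 bp of a 5' end and 157 at a small RNA gene, with 36 counted under both. The IDR list itself was selected on the peak score, so the scores below describe the members and test nothing.

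The series holds a single group. It consists of 2 biological replicates of strain OP488, whole hermaphrodite worms at the late embryo stage, taken 4 h after synchronisation by egg bleaching. Both replicates carried unc-119(tm4063) on III and wgIs488, a transgene in which the C-terminal end of SYD-9 bears GFP and FLAG, and both were sonicated and precipitated with an antibody against GFP. The sources used here do not give the promoter of the transgene, and an untagged precipitation was not analysed here. A whole embryo mixes all tissues, so the cells in which a region was occupied cannot be told apart.

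SYD-9 is a C2H2 zinc finger protein known for its part in placing synaptic vesicle proteins in worm neurons. Most worm genes are compact, with the regulatory sequence close to the gene, while long introns and wide intergenic gaps can hold enhancers, alternative promoters and noncoding RNA genes. Many worm transcripts are trans-spliced to a short leader, which removes the start of the transcript, so the true start of transcription of a gene can lie upstream of its annotated 5' end.

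A few of the strongest members are shown first, because the scores below start from them. Each is the plus strand of build ce11 within 50 bp of the summit, read from the RefSeq genome sequence of WBcel235 (the same assembly), and capitals mark GAGAGA or its other phase AGAGAG on either strand. The regions lie upstream of K12H4.5, in an intron of M01F1.8, upstream of eel-1 and upstream of cmd-1.
K12H4.5, chrIII:8043912-8044012: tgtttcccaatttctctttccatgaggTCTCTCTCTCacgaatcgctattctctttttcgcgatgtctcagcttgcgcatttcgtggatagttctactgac
M01F1.8, chrIII:3500019-3500119: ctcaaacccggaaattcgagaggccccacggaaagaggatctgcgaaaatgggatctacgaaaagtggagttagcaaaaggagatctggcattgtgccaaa
eel-1, chrIV:3050754-3050854: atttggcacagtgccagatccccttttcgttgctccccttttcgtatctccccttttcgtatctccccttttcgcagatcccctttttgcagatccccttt
cmd-1, chrV:1151439-1151539: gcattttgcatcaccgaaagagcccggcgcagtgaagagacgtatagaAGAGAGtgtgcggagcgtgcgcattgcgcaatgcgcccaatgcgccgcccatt

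A repeat of G and A was the 6-letter word with the greatest excess at the summits, and some members with an unbroken repeat of 12 or more bases in unique sequence show what it looks like. Again capitals mark GAGAGA or AGAGAG and their reverse complements in the same window. Y53G8AM.8 and ceh-44 hold their regions in introns, and tig-3 and T23F11.4 are the genes of the nearest 5' end of intergenic regions.
Y53G8AM.8, chrIII:3271822-3271922: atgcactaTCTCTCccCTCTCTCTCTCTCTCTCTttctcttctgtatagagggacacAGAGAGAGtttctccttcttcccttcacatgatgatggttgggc
ceh-44, chrIII:2532785-2532885: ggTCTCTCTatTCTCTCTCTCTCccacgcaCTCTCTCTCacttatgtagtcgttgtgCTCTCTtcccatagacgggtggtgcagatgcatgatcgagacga
tig-3, chrII:15256018-15256118: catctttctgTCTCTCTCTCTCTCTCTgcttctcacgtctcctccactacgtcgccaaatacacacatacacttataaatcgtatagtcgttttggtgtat
T23F11.4, chrIII:4666864-4666964: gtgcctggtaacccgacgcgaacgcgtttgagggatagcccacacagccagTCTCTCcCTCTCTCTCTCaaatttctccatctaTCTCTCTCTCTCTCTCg

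A pair of further words in excess overlaps and joins into AGACGCAGA, shown in capitals on either strand in some of the highest-scoring members that hold it in unique sequence. The regions near sup-37 and Y97E10C.1 are intergenic and that of larp-1 is intronic.
sup-37, chrV:8785692-8785792: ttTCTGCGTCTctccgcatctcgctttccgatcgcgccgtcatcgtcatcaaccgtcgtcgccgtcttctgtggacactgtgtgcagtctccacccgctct
larp-1, chrIII:5014086-5014186: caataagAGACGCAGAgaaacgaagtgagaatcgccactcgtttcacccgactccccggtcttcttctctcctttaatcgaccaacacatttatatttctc
Y97E10C.1, chrV:7728225-7728325: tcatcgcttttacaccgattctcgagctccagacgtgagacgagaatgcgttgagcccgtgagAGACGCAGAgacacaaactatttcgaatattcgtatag

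Several members fell on or beside genes for the RNA of the signal recognition particle, which guides secreted proteins to the endoplasmic reticulum. The first 100 bases of the 4 such genes on III are shown in the direction of the RNA. srpr-1.1 and srpr-2.2 lie on the minus strand and srpr-1.2 and srpr-2.1 on the plus strand. At srpr-1.1 the member summit lay beyond the gene. Capitals mark bases that differ from srpr-2.2 at the same position.
srpr-1.1, chrIII:4379107-4379206: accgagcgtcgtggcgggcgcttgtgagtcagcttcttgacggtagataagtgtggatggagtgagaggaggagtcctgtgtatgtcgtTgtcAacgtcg
srpr-1.2, chrIII:4369468-4369567: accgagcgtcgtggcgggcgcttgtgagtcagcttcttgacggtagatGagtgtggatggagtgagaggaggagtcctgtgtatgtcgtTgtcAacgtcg
srpr-2.1, chrIII:5211220-5211319: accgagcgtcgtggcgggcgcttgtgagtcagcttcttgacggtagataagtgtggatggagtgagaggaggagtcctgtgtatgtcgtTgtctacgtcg
srpr-2.2, chrIII:5031609-5031708: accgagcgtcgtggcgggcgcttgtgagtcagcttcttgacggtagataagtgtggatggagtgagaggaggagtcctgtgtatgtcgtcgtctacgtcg

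Most members were intergenic. Of the 242 summits, 144 (59.5%, exact 95% Clopper-Pearson interval 53.0 to 65.7) lay between protein-coding genes and 83 (34.3%, interval 28.3 to 40.6) in introns. Coding exons held 9 (3.72%, interval 1.71 to 6.94), 5' UTRs 3 and 3' UTRs 3. The intervals cover counting error only. Of the autosomal bases that meet both distance limits, here called eligible (62.4 Mb, 75.6% of the autosomes), 36.9% were intergenic, 35.2% intronic and 24.3% coding. The members' interval for intergenic summits lay above the eligible share, that for coding exons below it, and that for introns held it.

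The 294 autosomal IDR regions at protein-coding 5' ends and at no small RNA gene had an intronic summit in 13.6% and an intergenic summit in 78.9%. A further 6944 autosomal regions of the pooled list met both distance limits but fell below the IDR set. Their shares were 31.7% intronic, 35.5% intergenic and 28.7% coding, close to the eligible bases, while the members' coding share of 3.72% stood far below both.

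**Figure D1:**
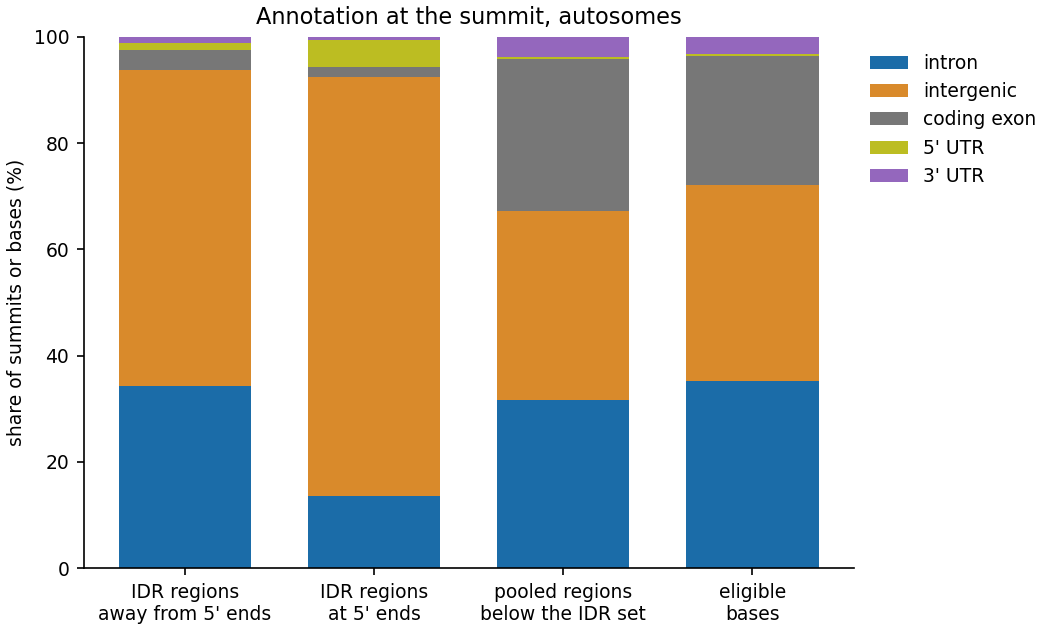
Share of summits (or of bases, in the rightmost bar) by annotation on autosomes, as stacked bars in percent. IDR regions away from 5' ends are 34.3% intronic and 3.72% coding, against 31.7% and 28.7% in pooled regions below the IDR set and 35.2% and 24.3% of eligible bases.

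Members had lower median scores than other autosomal IDR regions. The signal value, the score that the authors' peak caller gave against a control, in no stated unit, had a median of 119 over members (quartiles 105 and 141, range 95.2 to 932). It was 124 over intronic, 119 over intergenic and 103 over exonic members, against 127 at protein-coding 5' ends and 145 at small RNA genes. Pooled regions below the IDR set that met the distance limits had a median of 43.2. The 3 lowest members scored 95.3, 95.2 and 95.2, and the 3 highest of the regions below the set 95.0 each.

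The strongest member lay between genes. Upstream of K12H4.5, an uncharacterised gene, a summit at 8043962 on III scored 443 in replicate 1 and 490 in replicate 2, and 932 in the pooled list. It lay 525 bp from the 5' end, just beyond the distance limit, in a gap of 1611 bp between divergent genes. The intron 4 of M01F1.8, which encodes a lipoprotein, held the next, at 3500069 on III, with 195 in replicate 1, 235 in replicate 2 and 431 pooled. The next intronic member scored 241, so M01F1.8 stood well apart from the rest of its class.

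Upstream of eel-1, which encodes a HECT ubiquitin ligase, a summit at 3050804 on IV scored 155 in replicate 1, 108 in replicate 2 and 373 pooled. Only 27.0% of its 50-base words occurred once in the genome, and some occurred 44 times, so reads there can come from other copies. A stronger IDR region, with a score of 446 at 500 bp from the eel-1 5' end, had its summit 200 bp from this member. Far upstream of cmd-1, the calmodulin gene, a summit at 1151489 on V scored 134 in replicate 1, 216 in replicate 2 and 349 pooled. It lay 4782 bp from the 5' end of cmd-1, inside the long noncoding RNA gene linc-128, and its sequence was unique throughout.

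**Figure D2:**
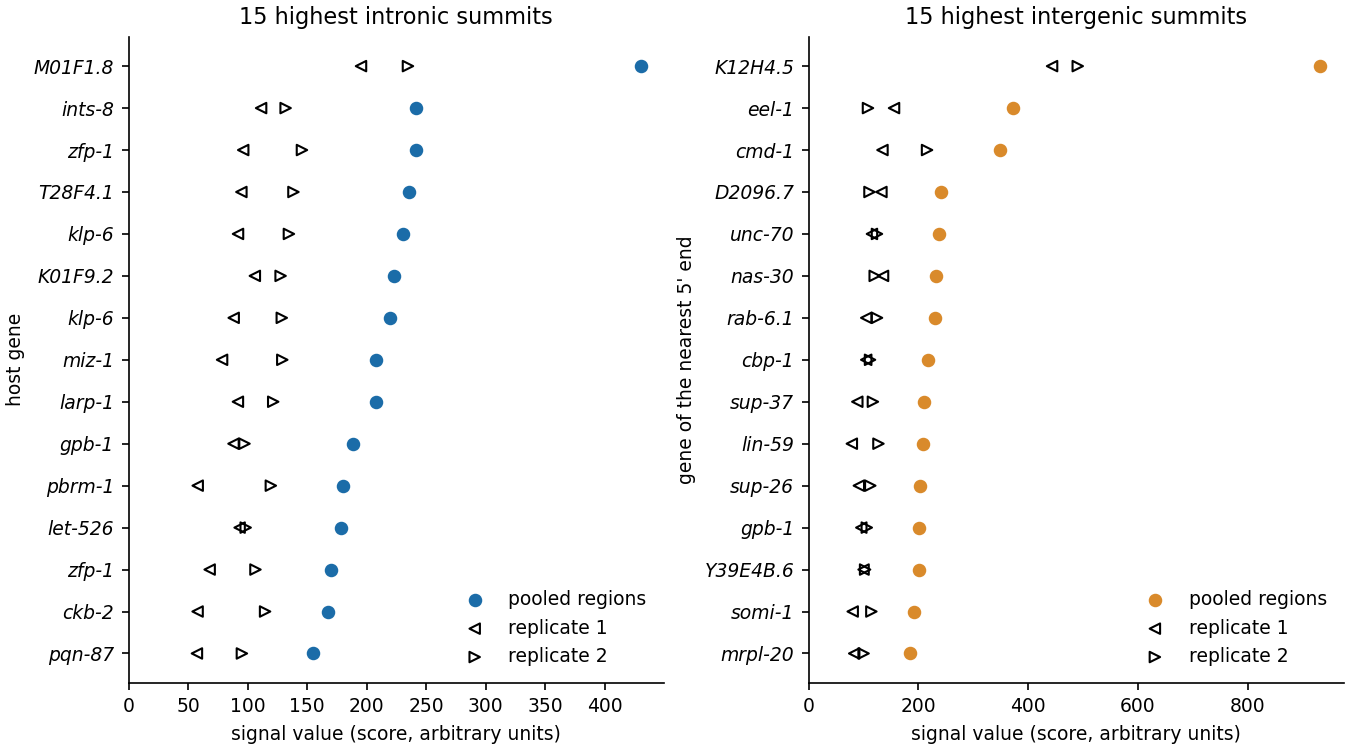
Signal value (score, arbitrary units) of the 15 highest intronic (left) and 15 highest intergenic (right) members, from the pooled list (filled points) and from the lists of replicate 1 and replicate 2 (open triangles). Rows name the host gene or the gene of the nearest 5' end, and the axes differ in range: K12H4.5 reached 932 and M01F1.8 431.

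Intronic members sat in long introns. The 83 summits fell in 62 host genes, 0.360% of the 17242 autosomal protein-coding genes. The intron that held the summit had a median length of 3936 bp (range 386 to 18310), against 70 bp over all 90358 autosomal introns. Introns over 1000 bp held 73 summits (88.0%), against 7.98% of all introns, and a long intron also offers more bases beyond the distance limit. First introns held 37 (44.6%), against 23.1% of eligible intronic bases. In 73 cases the nearest 5' end belonged to the host itself and in 10 to another gene.

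Among the 15 highest intronic members, zfp-1, a zinc finger gene of the AF10 family, held a summit at 8802045 on III that scored 96.3 in replicate 1, 146 in replicate 2 and 241 pooled, and a summit at 8795889 with 68.1, 107 and 170. These lay in different introns, each the first of a transcript of the gene. Intron 3 of pbrm-1, the Polybromo subunit of SWI/SNF remodellers, held a summit with 58.1 in replicate 1, 120 in replicate 2 and 180 pooled. Intron 1 of let-526, whose ARID domain product is another SWI/SNF subunit, held a summit with 93.3 in replicate 1, 98.4 in replicate 2 and 179 pooled, within the antisense RNA gene F48C1.15. In value, replicate 2 was much higher than replicate 1 for pbrm-1 and close to it for let-526. The lists may differ in scale, so such contrasts, here and below, describe the deposited values only.

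Further hosts among the 15 highest were of mixed kinds. Intron 5 of larp-1, a La-related RNA-binding protein, held a summit with 91.9 in replicate 1, 122 in replicate 2 and 208 pooled. In intron 1 of gpb-1, the G protein beta subunit, the values were 88.2 in replicate 1, 97.4 in replicate 2 and 189 pooled. Intron 4 of miz-1, a Zmiz1 homologue, held one with 78.6, 129 and 208 in the same order, and intron 1 of T28F4.1, which encodes a SERTA domain protein, one with 94.8, 139 and 236. Intron 4 of the uncharacterised gene K01F9.2 scored 106, 128 and 223, and intron 1 of pqn-87, which encodes a MATH domain protein, 57.4, 95.2 and 155. Replicate 2 was the higher in each of these hosts. A gene annotated as noncoding RNA stood within 200 bp of the gpb-1, T28F4.1 and pqn-87 summits, and of the pbrm-1 summit above. The T28F4.1 summit lay inside that gene, T28F4.7.

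Of the 62 hosts, 15 held 2 or more member summits. ppfr-1, a regulatory subunit of protein phosphatase 4, held 4 with pooled scores of 102 to 143, and pqn-41, a polyglutamine protein, held 4 with 95.9 to 151. zfp-1 held 3 with 97.1 to 241 and let-526 3 with 101 to 179. The other hosts with a pair were klp-6, ints-8, cam-1, ceh-44, gei-4, hmt-1, lin-42, mdt-26, pbrm-1, trpa-1 and K01F9.2. Some pairs are adjacent windows on the same enriched stretch: over all members, 24 had another member within 500 bp, and merging these left 230. In lin-42, the period homologue that times larval development, the summits were 4569 bp apart, with pooled scores of 105 and 95.4.

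Intergenic members lay mostly upstream of a gene. The nearest 5' end had the summit on its upstream side for 126 of 144 intergenic members (87.5%), against 69.7% of eligible intergenic positions taken every 101 bp. Their median distance was 1582 bp, against 2206 bp for those positions, with 13 beyond 5000 bp. These summits named 138 nearest genes, 0.800% of the autosomal protein-coding genes. Between divergent genes lay 64 members (44.4%), against 31.1% of eligible intergenic bases, and between convergent genes 4 (2.78%), against 14.6%. Genes in tandem flanked 76 (52.8%), against 54.4%. The gaps had a median of 5542.5 bp, against 818 bp over all autosomal gaps, though short gaps hold few eligible bases.

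**Figure D3:**
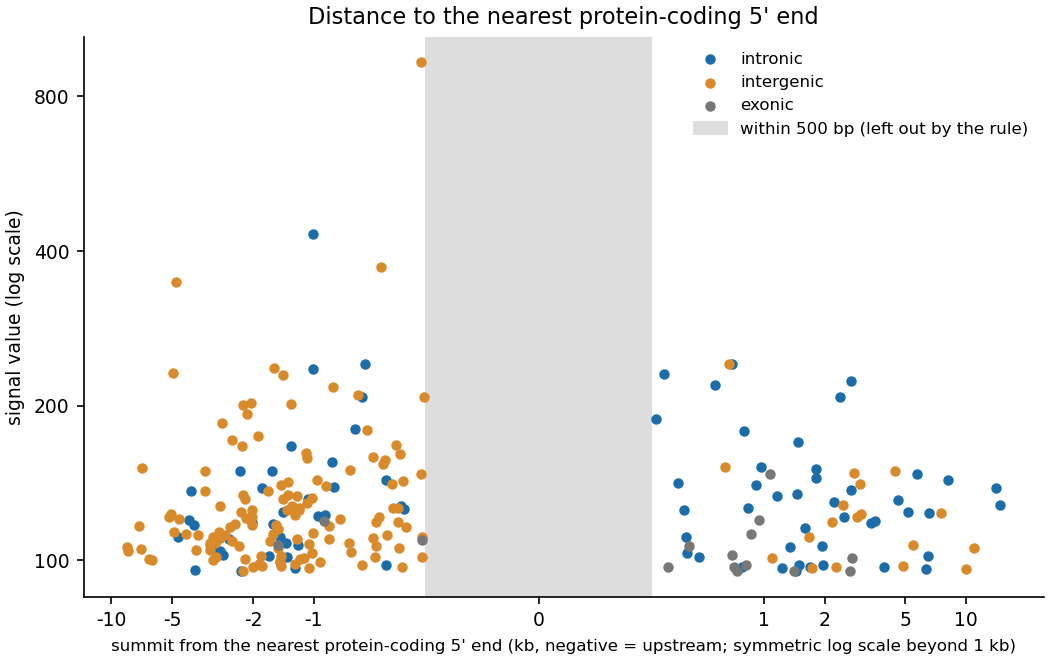
Signal value of each member (log scale) against the distance of its summit from the nearest protein-coding 5' end in kb, with upstream positions negative, a symmetric log axis beyond 1 kb and the 500 bp left out by the rule in grey. Intergenic members (orange) lie mostly on the upstream side (126 of 144), while intronic members (blue) lie on both sides, with 39 of 83 upstream.

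Over all members the distance ran from 510 to 14730 bp with a median of 1476 bp. Within 1000 bp lay 75 (31.0%), beyond 2000 bp 94 and beyond 5000 bp 21. At the distance limit, the nearest members were those upstream of lin-59 (510 bp), ZC443.3 (519 bp), act-1 (520 bp), vha-13 (521 bp), Y59A8B.24 (522 bp) and K12H4.5 (525 bp), and downstream of the 5' end of gpb-1 (521 bp). Just outside the rule were IDR regions upstream of eel-1 (500 bp, score 446), sor-1 (498 bp, 152), rps-24 (492 bp, 249), ippk-1 (492 bp, 155), sms-3 (486 bp, 147), unc-70 (479 bp, 184), eat-16 (478 bp, 199) and W01B6.8 (477 bp, 99.2), and downstream of the 5' end of egl-30 (491 bp, 124). The scores on either side of the limit overlapped widely.

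The 15 highest intergenic members included regions near cbp-1, lin-59, sup-37 and somi-1. Upstream of cbp-1, the CBP and p300 acetyltransferase homologue, a summit 917 bp from the 5' end scored 105 in replicate 1, 112 in replicate 2 and 217 pooled. At lin-59, a histone methyltransferase gene of the ASH1 type, the values were 78.5 in replicate 1, 127 in replicate 2 and 208 pooled. The regions of sup-37 and somi-1, both zinc finger genes, lay 803 and 2148 bp upstream, with 88.5 and 80.1 in replicate 1, 117 and 114 in replicate 2, and 210 and 192 pooled. Both replicates scored the cbp-1 region about alike, and replicate 2 was higher at the other 3 genes.

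The nearest genes of the other members among the 15 highest were of mixed kinds. At unc-70, which encodes beta spectrin, a summit 1581 bp upstream scored 115 in replicate 1, 124 in replicate 2 and 237 pooled. That summit lay inside T19F4.6, a gene annotated as noncoding RNA. Upstream of rab-6.1, a Golgi Rab GTPase gene, the values were 105, 124 and 230 in that order, and 1302 bp upstream of gpb-1 they were 95.8, 106 and 201. The region 2053 bp upstream of sup-26, an RNA-binding protein gene, had 91.3, 112 and 203. Those at Y39E4B.6 (homologue of a Smad-interacting protein) and mrpl-20 (mitochondrial ribosomal protein) had 99.9, 103 and 201, and 82.9, 100 and 185. Replicate 1 was the higher at D2096.7, whose summit lay 847 bp downstream of the 5' end between convergent genes (132, 111 and 241), and at nas-30, a zinc metalloproteinase gene (135, 120 and 232, at 4966 bp upstream). At nas-30 only 52.0% of the 50-base words were unique and some occurred 191 times, so its value can include reads from other copies.

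Gene class lists, taken by name patterns, placed few members. Of 78 autosomal genes for kinesins, myosins and the cytoskeleton, 3 were hosts (3.85%, beside 0.360% of all genes) and 6 nearest genes (7.69%, beside 0.800%). Here and in the lists below, shares per gene are not corrected for the eligible bases in a gene's introns and gaps. The hosts were klp-6, unc-104 (an axonal kinesin, 59.4 in replicate 1, 81.1 in replicate 2 and 147 pooled) and lev-11 (tropomyosin, 67.9, 25.7 and 137). unc-70, unc-116 (kinesin heavy chain, 54.0, 80.6 and 140), ttn-1 (titin homologue, 45.9, 90.4 and 136), hum-5, unc-73 and act-1 were the nearest genes. The unc-104 summit lay beside the pseudogene C52E12.t1, with 67.9% of its 50-base words unique. Both klp-6 summits lay at srpr-2.2, a gene for the RNA of the signal recognition particle, described below.

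Of 76 genes for cell adhesion and axon guidance, 3 were hosts (3.95%, beside 0.360% of all genes) and 2 nearest genes (2.63%, beside 0.800%). cam-1, a Ror receptor kinase of neuronal migration, held summits with 51.5 in replicate 1, 84.1 in replicate 2 and 134 pooled, and with 27.9, 66.3 and 95.2. hmr-1, the classical cadherin, held one with 59.0, 63.4 and 124 in an intron of 18310 bp, the longest among hosts. unc-33 held one with a pooled score of 97.8, and unc-44 (ankyrin, 128) and ina-1 (integrin alpha, 108) were nearest genes.

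Of 105 genes for signalling ligands, receptors and kinases, 3 were hosts (2.86%, beside 0.360% of all genes) and 5 nearest genes (4.76%, beside 0.800%). lag-1, the transcription factor of Notch signalling, held a summit in intron 1 with 78.2 in replicate 1, 75.1 in replicate 2 and 144 pooled, mpk-1 (MAP kinase) one with 120 pooled and pkc-1 (protein kinase C) one with 104 pooled. egl-10, a regulator of G protein signalling, had a summit 2529 bp upstream with 65.2 in replicate 1, 103 in replicate 2 and 172 pooled. Among factors, the 69 homeobox genes gave the host ceh-44 (cut type, pooled 131 and 130) and the nearest gene ceh-48 (134), each 1.45% of them. The 106 other factor genes gave the host daf-16 (FOXO, 108), 0.943% of them, and the nearest genes ztf-6 (136) and zip-7 (124), 1.89%. The 247 nuclear hormone receptors gave the nearest genes nhr-20 (120) and nhr-121 (104), 0.810% of them, close to the 0.800% of all genes. The name patterns miss further genes of these kinds. The zinc finger genes zfp-1, sup-37 and somi-1 and the bZIP gene gei-4, all named above, are not among the listed factors, nor is gpb-1 among the signalling genes.

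Of the 16 lists, 7 gave neither a host of an intronic member nor a nearest gene of an intergenic one. Among 112 neuropeptide and insulin genes, 127 ion channel genes, 154 neurotransmitter receptor genes, 192 collagen and cuticle genes, 57 heat shock and folding genes, 70 histone genes and 236 C-type lectins, none was such a host or nearest gene, beside the 0.360% and 0.800% of all genes given above, and summits in exons were not counted here. The 76 cytosolic ribosomal protein genes gave the nearest gene rpl-21 (1.32%) and the 378 F-box and BATH genes the nearest gene fbxa-55 (0.265%). The 1275 chemosensory receptor genes gave the host srt-52 (0.0784%). The name patterns do not catch every ion channel gene either. trpa-1, a TRP channel gene, held 2 summits with pooled scores of 124 and 96.1, and tax-4 (cyclic nucleotide-gated channel, 116) and ccb-1 (calcium channel beta subunit, 125) were nearest genes.

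Exonic members were few, with pooled scores of 95.2 to 147, the highest in pals-26. Of the 9 coding-exon summits, 5 (55.6%) lay in collagen genes, which make up 0.595% of eligible coding bases and held 109 of 1991 coding-exon summits (5.47%) below the IDR set. The col-40 exon scored 65.2 in replicate 1, 52.7 in replicate 2 and 119 pooled, col-91 54.5, 56.1 and 112, ram-2 51.3, 50.6 and 103, col-80 43.7, 51.9 and 97.1, and col-105 45.3, 45.1 and 97.0. Their windows were 62.4 to 71.3% GC, and all their 50-base words were unique. The other 4 coding exons belonged to pals-26, icl-1, swsn-1 and T28D6.4, and the UTR summits to F22D3.4, ZC443.4, unc-62, cept-2, mrpl-44 and crt-1. These genes were named after their values were seen.

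Noncoding RNA genes outside the classes in the rule lay at many members. Genes annotated as ncRNA stood within 200 bp of 67 summits (27.7%, interval 22.1 to 33.8), against 2.72% of eligible bases, and 44 of the 67 summits lay inside the gene. The share was 55.4% at autosomal small RNA genes, 13.9% at autosomal protein-coding 5' ends and 8.04% below the IDR set. On X it was 31.3% in the 96 regions that meet the same distance limits, 58.6% at small RNA genes and 26.6% at protein-coding 5' ends. Of the 67, 21 were intronic, 44 intergenic and the others exonic. With the 500 bp limit applied to 5' ends of genes of every biotype, 154 of the 242 members remained, and the rest had the 5' end of another kind of gene within that distance. The members hit 87 of 5244 autosomal ncRNA genes (1.66%), with a median length of 191 bases against 139 over all of them. Members near ncRNA genes had a median score of 126, against 116 for the others. piRNA genes, in contrast, stood near none, though 4.44% of eligible bases lay that close to one, and pseudogenes stood near 3 (1.24%, against 5.42%).

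Genes for named structural RNAs, of kinds that RNA polymerase III transcribes in many eukaryotes, were among them. rpr-1, the RNA of ribonuclease P, lies in intron 1 of ints-8, an Integrator subunit gene, and the summit there, 30 bp into the RNA gene, scored 111 in replicate 1, 132 in replicate 2 and 241 pooled. A second summit on the same gene scored 49.1, 28.3 and 104. srpr-2.2, in intron 2 of the kinesin gene klp-6, had a summit 223 bp into the gene with 92.0 in replicate 1, 135 in replicate 2 and 230 pooled, and another in the same intron with 88.3, 129 and 219. srpr-1.2, in intron 7 of the choline kinase gene ckb-2, scored 58.0, 115 and 167 in the same order, and srpr-2.1, upstream of the syntaxin gene syx-16, 75.8, 89.2 and 167. All of these were scored by both replicates.

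Near srpr-1.1 the member summit lay 460 bp from the 5' end, beyond the 298 bases of the gene and within a coding exon of pals-26, with 71.1 in replicate 1, 78.0 in replicate 2 and 147 pooled. srpr-3 on V had no IDR region, and its region below the set scored 35.9 in replicate 1, 41.4 in replicate 2 and 80.4 pooled. The gene of the RNase MRP RNA, mrpr-1, scored 172 but lay within 500 bp of a protein-coding 5' end, so it is not a member, and yrn-1, the Y RNA gene, had no pooled region within 200 bp. Between the pairs shown above, srpr-2.1 and srpr-2.2 were 99.0% identical, srpr-1.1 and srpr-1.2 98.3%, and genes of different pairs 94.0 to 94.3%. With such copies, reads of one gene could be assigned to another: 44.8% of the 50-base words at srpr-2.1, 37.3% at srpr-1.2 and 56.7% and 75.8% at the klp-6 summits were unique. The values of single SRP RNA genes are uncertain for that reason.

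By exact 50-base words, repeats touched few other members. All 50-base words within 150 bp of the summit occurred once in the genome for 227 of 242 members (93.8%), against 94.2% at protein-coding 5' ends. In 7 members fewer than 50% were unique: those at eel-1, srpr-1.2, srpr-2.1, Y50D4A.6, duo-3, nhr-121 and ppfr-1. The word with most copies, 893, lay in the lowest-scoring ppfr-1 region. Copies that differ at some bases escape this count. Read on the other strand, the end of the M01F1.8 window shown above resembles the start of the eel-1 window, though all words at M01F1.8 were unique.

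Members were unevenly spread over the autosomes. III held 66 (27.3%), against 17.2% of eligible bases, and V held 40 (16.5%), against 24.4%. I held 54 (22.3%, against 18.7%), II 39 (16.1%, against 18.2%) and IV 43 (17.8%, against 21.5%). Part of this spread belongs to the whole IDR list. Members were 42.3% of all IDR regions on III, 34.0% on I, 33.3% on IV, 33.3% on V and 30.2% on II, against 34.9% over the autosomes. On V that share was thus close to the one over the autosomes. Intronic members numbered 29 on III and 5 on V, and intergenic ones 33 and 29. The middle 33.3% of each autosome held 95 members (39.3%), against 32.0% of eligible bases. The nearest other member was at a median of 75003 bp, and 20 clusters within 2000 bp held 41 members, with no more than 3 in any.

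Both replicates scored nearly every member. A region of each replicate lay within 200 bp of the summit for 241 of 242, and the exception, in intron 1 of gei-4, lacked replicate 1 there. The IDR step draws on both replicates, so the selection itself favours such regions. The share was 98.3% at autosomal protein-coding 5' ends, 100% at autosomal small RNA genes and 37.9% below the IDR set. The members' values had a median of 51.5 in replicate 1 and 70.6 in replicate 2. Replicate 2 was the higher in 204 of 241 members (84.6%), against 190 of 289 regions at protein-coding 5' ends (65.7%) and 138 of 157 at small RNA genes (87.9%). The ratio of replicate 2 to replicate 1 had a median of 1.32 in members (quartiles 1.12 and 1.63, range 0.378 to 3.97), against 1.13 at 5' ends and 1.20 at small RNA genes. Since the lists may differ in scale, the ratio is read between groups and not as a difference between replicates. Among the 941 highest-scoring regions of both replicates were 143 members (59.1%), against 64.3% at 5' ends and 77.7% at small RNA genes. In the upper 61 members by score all were among them, and in the lowest 61 only 9.

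**Figure D4:**
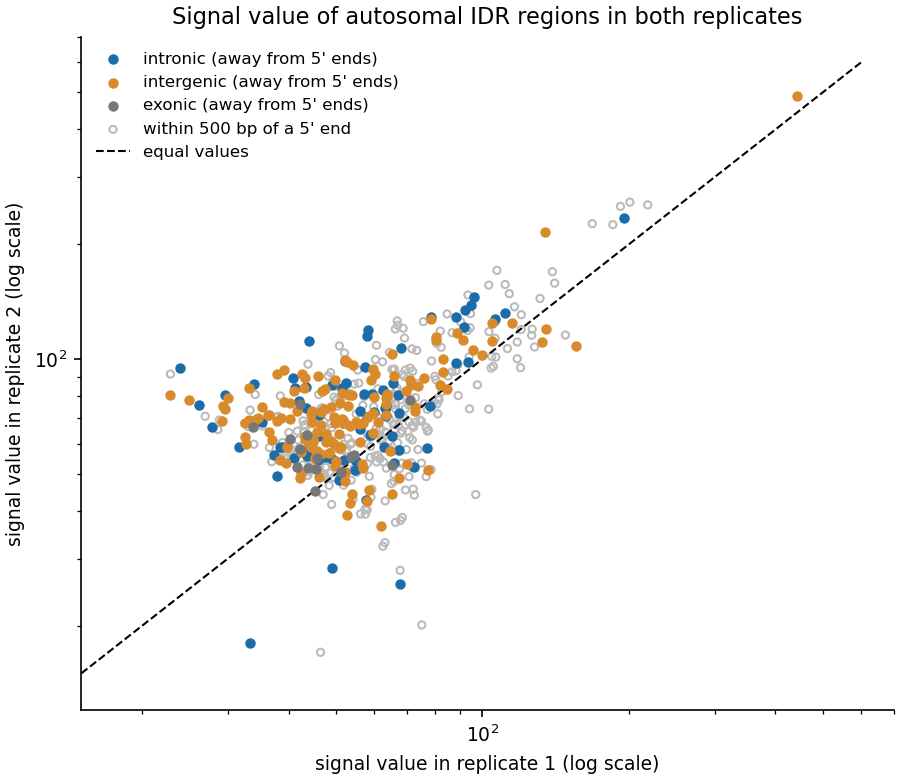
Signal value in replicate 1 and replicate 2 (log axes) for members by class (filled points) and for autosomal IDR regions within 500 bp of a protein-coding 5' end (grey circles), with the line of equal values. Members lie above the line in 204 of 241 cases, against 190 of 289 for regions at 5' ends.

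Members were rich in G and C over a broad stretch. The median GC content within 50 bp of the summit was 52.5% (quartiles 47.5 and 56.4) over members, and 52.5% in both intronic and intergenic members. It was 49.5% at autosomal protein-coding 5' ends, 52.5% at autosomal small RNA genes, 44.6% below the IDR set and 34.7% in all 617542 eligible windows. On X it was 54.0% under the same distance limits, 54.5% at 5' ends and 51.5% at small RNA genes. In profiles by distance, intronic members averaged 53.2% GC at the summit, 46.9% and 46.6% at 200 bp on either side and 36.1 to 37.1% at 500 bp. Intergenic members averaged 52.8% at the summit and 40.6% and 40.0% at 200 bp. Autosomal regions at 5' ends had the same peak, 52.3%, but had dropped to 39.1% and 38.2% at 100 bp. There, intronic members still averaged 50.6% and 49.9% and intergenic members 47.9% and 47.7%. Within 150 bp of the summit, median GC was 49.7% in members, 42.5% at autosomal 5' ends and 46.2% at autosomal small RNA genes. On X it was 50.2% under the same distance limits, 51.0% at 5' ends and 43.7% at small RNA genes. Neither the level nor the breadth was thus particular to the members. GC content can itself affect ChIP enrichment, and its part in these scores was not tested.

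**Figure D5:**
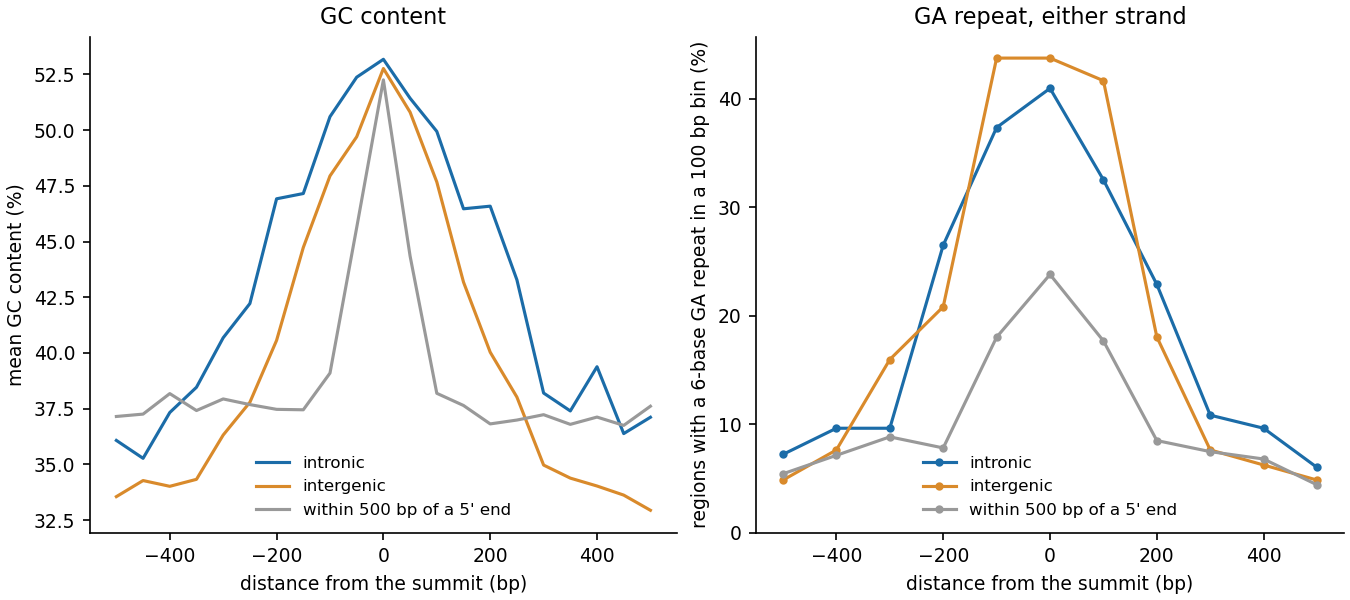
Mean GC content (left, percent) and share of regions with GAGAGA on either strand in a 100 bp bin (right, percent) by distance from the summit in bp. Both are raised within about 200 bp of the summit in intronic (blue) and intergenic (orange) members, and over a narrower stretch in regions within 500 bp of a 5' end (grey), where GC is 39.1% at 100 bp upstream on the plus strand.

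The GA repeat marked the members' centres. GAGAGA or its reverse complement stood within 50 bp of the summit in 102 members (42.1%, interval 35.9 to 48.6), in 41.0% of intronic and 43.8% of intergenic members. In the members' own flanks, windows of the same length 200 to 300 bp away, the share was 14.0%. It was 23.8% at autosomal protein-coding 5' ends, 17.2% at autosomal small RNA genes, 11.9% below the IDR set and 5.01% in eligible windows. On X the share was 30.2% under the same distance limits, 32.8% (interval 21.6 to 45.7) at 5' ends and 12.9% at small RNA genes. Among eligible windows with a GC content between the members' quartiles it was 8.52%, and among members in that range 44.9% (61 of 136).

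Long GA repeats were rarer. The longest unbroken run reached 20 bases, and 19 members (7.85%) had a run of 12 or more, against 5 regions at 5' ends (1.70%). Of the repeats shown above, the Y53G8AM.8 region scored 110 pooled and the ceh-44 region 130. Members with GAGAGA had a median score of 119, against 120 without it. On I the word stood in 30 of 54 members (55.6%), and on the other autosomes in 34.9 to 41.0%. In the 34 intronic members with the word, the GA strand ran in the direction of the host gene in 13. The word and ncRNA genes were met together in 28 members, 41.8% of those near ncRNA genes against 42.3% of the others.

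By excess over the flanks, the 7 words that came after GAGAGA were merged with it. Each overlaps GAGAGA or its reverse complement end to end by at least 4 letters when shifted by up to 2 letters. Of them, AGAGAC stood in 26.9% of members and 6.82% of flank windows, and the word CGTCTC in 23.6% and 5.17%. Of the next 5 words left after merging in this way, CACACA stood in 22.3% of members and 9.50% of flank windows, and AAAGAG in 25.6% and 13.8%. AAAGAG was left because its ends overlap GAGAGA by fewer letters, but it holds AGAG and is not independent of the GA repeat. CGCAGA stood in 15.7% of members and 4.13% of flanks, AGACGC in 13.6% and 3.51%, and CGCCGC in 12.8% and 2.48%. Regions at 5' ends held CACACA in 15.3%, CGCAGA in 16.7%, AGACGC in 17.3% and CGCCGC in 12.6%. AGACGCAGA, put together from the overlap after the words were seen, stood in 21 members (8.68%), against 8.50% at 5' ends, none of the 157 at small RNA genes, 1.79% below the IDR set and 0.389% of eligible windows. At autosomal 5' ends the share of AGACGCAGA lay close to that of the members, whereas that of GAGAGA, given above, lay below the members' interval. The interval for GAGAGA at 5' ends on X overlapped that of the members.

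Of the other motifs searched on both strands, most were no more frequent at the summits than in eligible windows. The B box core GTTCGANNC of RNA polymerase III genes stood in 3 members (1.24%), against 19.1% at small RNA genes and 0.744% of eligible windows. CCGCCC, a GC box, stood in 8.68% against 1.61% of eligible windows, and CCACCC in 7.02% against 1.61%. At autosomal protein-coding 5' ends the shares of these 2 words were 13.6% and 4.42%. TTTTTT stood in 5.37% of members against 41.2% of eligible windows, TATAAA in 2.07% against 10.7% and GAANNTTC in 2.48% against 8.10%. AGATAA stood in 2.48% against 5.61%, TAATTA in 0.826% against 4.48% and TGANTCA in 0.826% against 2.68%. CANNTG, the E-box, stood in 26.0% against 31.5%, and TGTTTAC in 1.24% against 0.981%. In windows rich in G and C, words made of A and T are rarer and words rich in G and C more frequent, which the comparison does not correct for.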

How the data were processed

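The 2 biological replicates form 1 group. Per the labels, the authors deposited lists of regions in narrowPeak layout: a list per replicate, a pooled list and the IDR set called optimal. The signal value is a deposited score relative to a control, with no stated scale. Build ce11 was used. The aligner, the peak caller and the IDR threshold are not given in the sources used here. In ce11 there were 10468 (replicate 1), 20425 (replicate 2) and 13472 (pooled) regions. All 941 IDR regions are in the pooled list. No list gives read counts, so depth is unknown. Nothing says whether replicates were separate cultures.

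Summits (start plus offset) were placed with the Ensembl annotation of WBcel235 and RefSeq names matched by WormBase identifier (46881 of 46926 genes). The summit base was assigned to a coding exon first, then to a UTR (5' before 3'), an intron or intergenic sequence. A replicate value is the score of the nearest summit within 200 bp in that replicate's list, and not a value at the member's own summit. Adjacent members can therefore share a replicate region, as both mdt-26 summits did in replicate 2 (52.1). With 1 group and members chosen on scores, no test was run. Shares have exact Clopper-Pearson intervals from scipy 1.17.1, with Python 3.11.15, pandas 2.3.3 and Biopython 1.88. The scripts were tested on simulated data. The members and lists were chosen with earlier results of these data known.

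Named genes follow a rule: the 15 highest intronic and intergenic members, those within 25 bp of the 500 bp limit and the regions just outside it, hosts of 2 or more summits, up to 4 genes of each of 16 gene classes, and the 6 words with the greatest excess among 2080 after overlapping words were merged. Exonic genes, trpa-1, tax-4, ccb-1, repeat-rich members and named noncoding RNA genes were named after their values were seen, and AGACGCAGA was put together then. A gene that the rule names is not reported here.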

Additional observations from a re-analysis of the deposited data

How the results depend on the processing

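Of 42 alternative values for 7 results, 34 stayed within the main value's interval (shares), within its quartiles (GC content) or within 1.5 times it (counts). The number of members was 167 at 1000 bp from 5' ends, 345 at 250 bp, 235 at 500 bp from small RNA genes and 230 after merging. It moved to 83 in the upper 50% of the IDR list, which is less than 50% of the 242 members. Members were thus a smaller part of the upper list than of the whole list. With 5' ends of every biotype, which add further positions to stay away from, the number moved to 154. When the 941 highest regions of a single replicate replaced the IDR list, the number was 244 to 274, the intronic share 33.2 to 34.8% and the intergenic share 56.6 to 59.1%. The upper 50% of the IDR list had an intronic share of 41.0%, and the cause was not tested. A region of each replicate stood at 93.0% of members with a limit of 100 bp, at 100% by any overlap and at 98.8% in the 5000 highest regions of each list. No paired analysis was possible because the series holds 1 group.

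Further alternatives were chosen after seeing the data. The share with GAGAGA was 34.4 to 35.8% with the list of a single replicate, below the main interval, and 37.3 to 44.9% under the others. The share near ncRNA genes was 34.9% in the upper 50% of the list, above its interval, 27.0 to 29.2% with the list of a single replicate and 25.7 to 27.8% under the others. The cause was not tested in either case. Counterparts within 200 bp in the single-replicate sets were found for 206 members (85.1%) with replicate 2's list and 178 (73.6%) with replicate 1's. Depth is unknown, so no counting error can be given for a score.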
